A study of Mus musculus with 12 samples.

Results

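The genes described here are the activity-induced transcription factors Egr1, Egr2, Egr3 and Egr4 of the EGR family and Nr4a1, Nr4a2 and Nr4a3 of the NR4A family. They were taken by gene symbol and Ensembl identifier, not by any measured value, and are 7 of the 18208 genes in the RNA-seq table. In the CLIP table, in which reads cross-linked to the RNA-binding protein hnRNP H were counted in windows of 100 bases, they hold 91 of 147438 windows.

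All mice were wild-type offspring of heterozygous Hnrnph1 mutant males and C57BL/6J females, aged postnatal day 50 to 100. Each mouse was injected with saline (10 ml/kg) on days 1 and 2 with 1 h of recorded activity. On day 3 the control group received saline again and the other group methamphetamine, a psychostimulant that releases dopamine, at 2 mg/kg i.p. Whole striata were taken 30 min after that injection. Each group had 3 pools of 4 mice (2 females and 2 males). From each pool, tissue set aside before cross-linking gave an RNA-seq library, and the rest gave an hnRNP H CLIP library from a 50 to 75 kDa membrane slice that holds RNA fragments of 30 to 70 nt. Each library averages over the mice of a pool and both sexes, and p-values measure the spread between these pools only.

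EGR proteins are zinc-finger transcription factors that bind GC-rich DNA, and NR4A proteins are orphan nuclear receptors whose activity is set mainly by how much of them is made. Their genes are immediate early genes: in neurons, calcium and MAP kinase signals act through the factors SRF and CREB to start transcription within minutes, with no need for new protein. In the striatum dopamine and glutamate receptors drive these genes, and Nr4a2 is also known for its role in dopamine neurons of the midbrain and in neurons of deep cortical layers.

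The sequences below are examples of exonic CLIP windows, or parts of them, from Egr3, Egr4 and Nr4a3, chosen to show windows with long runs of G beside windows with short runs or none. Windows of Egr1 and intronic windows are not shown. Runs of 3 or more G, a letter pattern that this protein favours, are in capitals. All are from GENCODE M21 transcripts on GRCm38, written 5′ to 3′ on the RNA strand. Coding windows are printed whole, and from each UTR window the 30 bases with the most G in runs are shown.

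Egr4 window 2, coding, chr6:85512122-85512221, minus strand: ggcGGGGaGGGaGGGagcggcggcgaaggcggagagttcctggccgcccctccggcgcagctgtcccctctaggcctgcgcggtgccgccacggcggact
Egr4 window 3, coding, chr6:85512822-85512921, minus strand: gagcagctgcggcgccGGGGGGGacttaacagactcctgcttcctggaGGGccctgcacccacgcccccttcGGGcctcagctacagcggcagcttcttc
Egr3 window 8, coding, chr14:70079504-70079603, plus strand: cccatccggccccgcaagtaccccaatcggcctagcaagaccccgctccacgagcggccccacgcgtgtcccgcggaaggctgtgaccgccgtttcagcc
Egr3 window 9, 3′ UTR, chr14:70080544-70080573, plus strand: ttcttcacataGGGtccccaagccgttGGG
Egr3 window 12, 3′ UTR, chr14:70081757-70081786, plus strand: aagagcGGGGattgcGGGGGattatGGGGG
Nr4a3 window 1, 5′ UTR, chr4:48045164-48045193, plus strand: gccgagagagcgagcgaacgcgcagccGGG
Nr4a3 window 7, 3′ UTR, chr4:48083573-48083602, plus strand: ttaggctttggtGGGtGGGttGGGaGGGGG

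Egr4 window 3 holds a run of 7 G and Egr3 window 12 holds 3 runs of at least 4, whereas Egr3 window 8, with 28 reads the most read coding window of that gene, holds no GGG. Of the 30 windows of the 7 genes that lie inside 1 exon and have at least 1 read, 20 held GGG and 11 held GGGG. In stretches of 100 bases along the longest transcript, GGG was found in 67.4% for Egr1, 61.6% for Egr3, 95.1% for Egr4 and 61.1% for Nr4a3. The read windows of these genes held it in 5 of 10, 6 of 9, 3 of 3 and 3 of 4. For GGGG the stretches of the same genes gave 34.9%, 30.9%, 55.1% and 25.0%. Their read windows held GGGG in 3 of 10, 2 of 9, 3 of 3 and 2 of 4. These counts were not tested, and a run of G is a description of the letters, not a mapped contact.

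The 250 bases before the RefSeq start (GRCm38.p6) are shown next for the genes whose RNA levels are compared below and whose stretch holds no annotated exon, with a 30-base piece for Egr2. Capitals mark the CRE core TGACG (or CGTCA, its other strand), the CArG box that SRF binds, and the EGR sites GCGGGGGCG and GCGTGGGCG, searched on both strands.

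Egr2, chr10:67537789-67537818, plus strand: tcctcagtCCATATATGGgcagcgaCGTCA
Egr4, chr6:85513590-85513839, minus strand: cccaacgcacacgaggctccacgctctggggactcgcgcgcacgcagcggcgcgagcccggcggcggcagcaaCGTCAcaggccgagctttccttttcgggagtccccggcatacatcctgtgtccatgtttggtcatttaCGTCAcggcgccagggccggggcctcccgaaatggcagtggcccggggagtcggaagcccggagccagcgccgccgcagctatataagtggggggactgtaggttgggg
Nr4a1, chr15:101266596-101266845, plus strand: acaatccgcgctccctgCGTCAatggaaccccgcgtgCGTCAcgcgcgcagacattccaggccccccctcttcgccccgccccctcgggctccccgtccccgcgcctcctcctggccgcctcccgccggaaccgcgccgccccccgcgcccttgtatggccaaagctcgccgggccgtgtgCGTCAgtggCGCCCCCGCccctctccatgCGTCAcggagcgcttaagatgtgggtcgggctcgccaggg
Nr4a2, chr2:57124004-57124253, minus strand: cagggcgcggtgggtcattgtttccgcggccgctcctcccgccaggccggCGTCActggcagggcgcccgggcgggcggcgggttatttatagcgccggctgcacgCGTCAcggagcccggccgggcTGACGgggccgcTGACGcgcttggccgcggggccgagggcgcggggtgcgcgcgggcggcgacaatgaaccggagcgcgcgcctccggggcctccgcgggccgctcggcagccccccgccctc

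The RefSeq table matched 5 of the 7 genes (Egr2, Egr4, Nr4a1, Nr4a2 and Nr4a3). Nr4a1, Nr4a2 and Nr4a3 each held 4 CRE cores and Egr4 held 2. For Nr4a3, 152 of the 250 bases searched lie in a GENCODE exon. Egr2, listed with several starts, held the same 2 at 3 of them, whose stretches overlap. At least 1 CRE core was present in 17.7% of 32817 promoter stretches of that length in the table, and cores per stretch were not counted there. Those stretches were not matched for GC content, which was 63.6% to 80% for Nr4a1, Nr4a2, Nr4a3 and Egr4. Among the 5 genes, the CArG box was found before Egr2 only, against 1.47% of all stretches, and an EGR site before Nr4a1 only, against 3.06%. A match says that these letters stand there and nothing about binding in the striatum.

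RNA-seq depth was 3935160 to 5091839 reads per library and CLIP depth 423057 to 1635338 reads in windows. In both assays the first principal component, which carried 65.6% of the variance in RNA-seq and 46.6% in CLIP, parted the pools across treatment. Saline pools 1 and 3 and methamphetamine pool 2 (set A) lay on one side, and saline pool 2 and methamphetamine pools 1 and 3 (set B) on the other. The sets differed in marker genes: the summed level of 10 cortical excitatory neuron markers was 211 to 481 CPM in set A against 517 to 932 CPM in set B. For 10 striatal projection neuron markers the sums were 8275 to 9469 CPM and 5995 to 6776 CPM, and none of the 10 was at 0 in any library. In such bulk tissue, fewer cells of a type and less RNA per cell cannot be told apart. The sets would coincide with treatment if saline pool 2 and methamphetamine pool 2 were exchanged. Whether any pool is mislabelled was not tested, and all groups here follow the labels. Because the sets cross the treatments, each difference between treatments is also given within the sets, where set A holds 2 saline pools and 1 methamphetamine pool and set B the reverse.

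No member passed the test for a difference in RNA level between treatments. The adjusted p from limma with Benjamini-Hochberg correction over 18208 genes was 0.9998 for each of the 7, and 0.0% of all genes passed an adjusted p of 0.05. At an unadjusted p below 0.05, limma listed 276 genes and edgeR's quasi-likelihood test on whole reads recovered from the values listed 109 of 13299, none with an adjusted p below 0.05. None of the 7 was among the 276. For none did the methamphetamine and saline values part without overlap, which 6.01% of all genes did. The differences of 6 genes lay from -0.01 to 0.16 on the log2 scale, and that of Nr4a2 was 0.87.

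**Figure D1:**
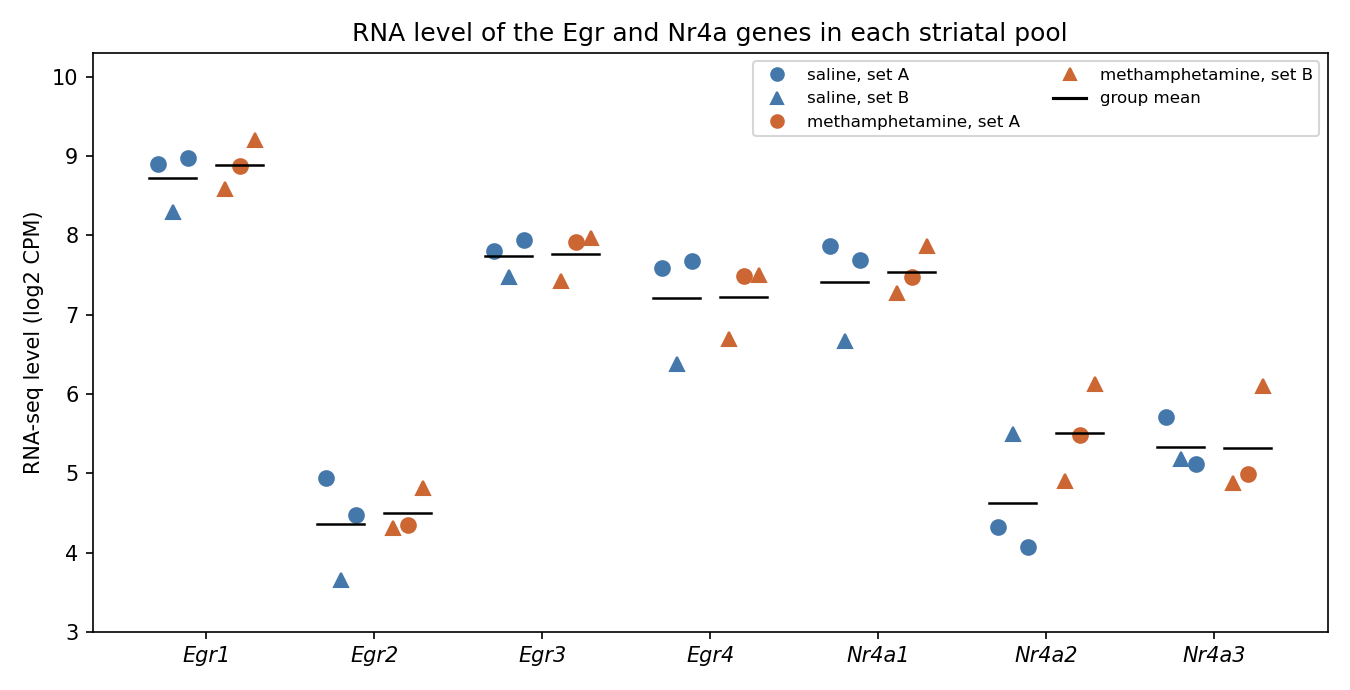
RNA-seq level (log2 CPM) of the 7 genes in each pool, saline in blue and methamphetamine in orange, circles for set A and triangles for set B, with black bars for group means (n = 3). Saline pool 2 is the lowest pool for Egr1, Egr2, Egr4 and Nr4a1, and methamphetamine pool 3 the highest for Egr1, Egr3, Nr4a2 and Nr4a3.

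Egr1, the most abundant of the EGR genes and a standard marker of neuronal activity, had levels of 8.89, 8.30 and 8.98 log2 CPM in saline pools 1, 2 and 3 and of 8.58, 8.87 and 9.20 in methamphetamine pools 1, 2 and 3. Saline pool 2 was low and methamphetamine pool 3 high, and the groups overlapped. The means were 8.72 ± 0.37 and 8.88 ± 0.31 (SD, n = 3), a difference of 0.16 ± 0.24 (SE, limma; 95% interval -0.38 to 0.70, unadjusted p = 0.519). It was -0.07 within set A and 0.59 within set B.

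Egr3, a zinc-finger factor closely related to Egr1, had levels of 7.80, 7.47 and 7.94 log2 CPM in saline pools and 7.42, 7.92 and 7.97 in methamphetamine pools. Both groups held 1 low pool and 2 close ones, and they overlapped. The difference was 0.03 ± 0.20 (SE; 95% interval -0.43 to 0.49), so the upper end of its interval is 1.41-fold. Within set A it was 0.05 and within set B 0.23. Egr3 had the narrowest range of the 7 genes over all pools, 0.55 on the log2 scale.

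Egr4 levels were 7.59, 6.38 and 7.68 log2 CPM with saline and 6.70, 7.49 and 7.50 with methamphetamine. Saline pool 2 and methamphetamine pool 1 stood below the other 4 pools, and the groups overlapped. Their difference was 0.01 ± 0.36 (SE; interval -0.79 to 0.81), -0.15 within set A and 0.72 within set B. Egr2, known also for its role in myelin-forming glia and the least abundant of the family, had 4.94, 3.65 and 4.47 log2 CPM with saline and 4.31, 4.35 and 4.82 with methamphetamine. All 3 methamphetamine values lay between the lowest and highest saline value. The difference for Egr2 was 0.14 ± 0.33 (SE; interval -0.59 to 0.87), -0.35 within set A and 0.92 within set B.

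Nr4a1, the orphan receptor also called Nur77, had levels of 7.87, 6.66 and 7.69 log2 CPM with saline and 7.27, 7.47 and 7.86 with methamphetamine. As for Egr1, Egr2 and Egr4, saline pool 2 was the lowest, and all methamphetamine values lay inside the saline range. Its difference was 0.13 ± 0.31 (SE; interval -0.57 to 0.82), -0.31 within set A and 0.91 within set B. Nr4a3 had 5.70, 5.18 and 5.11 log2 CPM with saline and 4.88, 4.99 and 6.10 with methamphetamine. Here 2 methamphetamine pools were below all saline pools and the other was above them. The difference was -0.01 ± 0.32 (SE; interval -0.74 to 0.72), -0.41 within set A and 0.31 within set B.

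Nr4a2, also called Nurr1, had levels of 4.33, 5.50 and 4.06 log2 CPM in saline pools 1, 2 and 3 and 4.90, 5.49 and 6.13 in methamphetamine pools 1, 2 and 3. Saline pools 1 and 3 were below all methamphetamine pools, and saline pool 2 was above 2 of them, so the groups overlapped. The means were 4.63 ± 0.76 and 5.51 ± 0.61 (SD, n = 3), a difference of 0.87 ± 0.41 (SE, limma; 95% interval -0.05 to 1.79, unadjusted p = 0.0602, adjusted p = 0.9998). That is 1.83-fold, with an interval of 0.969 to 3.47, and its unadjusted p ranked 367 among 18208 genes. The difference was 1.29 within set A and 0.01 within set B. In the same libraries the summed cortical excitatory markers ran from 211 to 629 CPM with saline and from 481 to 932 with methamphetamine, and 9 of 10 had a positive difference, 0 with an adjusted p below 0.05. All 10 striatal projection neuron markers had a negative difference (median -0.23 against 0.00 for all genes), 0 with an adjusted p below 0.05. Groups did not overlap for 3 of these 10, against 6.01% of all genes. The part of either marker list in the values of Nr4a2 or of the other members was not tested.

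**Figure D2:**
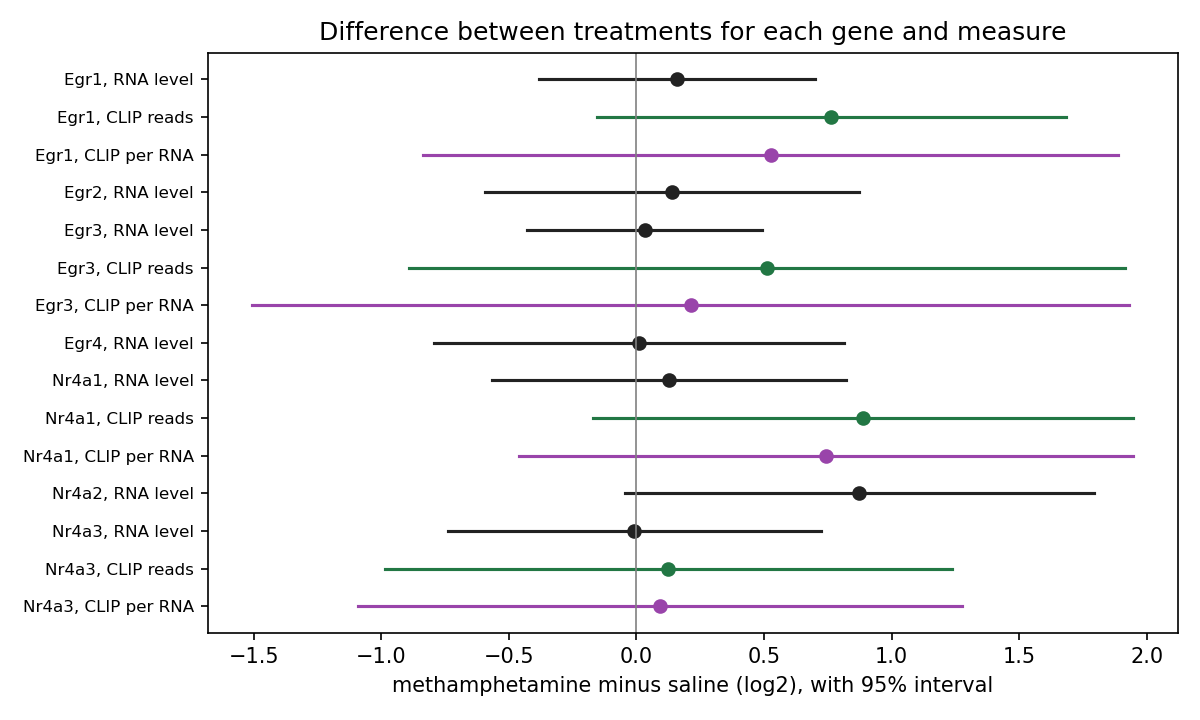
Methamphetamine minus saline difference (log2) with its 95% interval for RNA level (limma), summed CLIP reads (edgeR) and CLIP per RNA (limma), for each gene in which the measure was tested. Every interval includes 0, and that of Nr4a2 RNA, from -0.05 to 1.79, comes nearest to leaving it out.

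Leaving out 1 pool moved most of these differences across 0. Without saline pool 2, Egr1 stood at -0.05, Egr2 at -0.21, Egr3 at -0.10, Egr4 at -0.41 and Nr4a1 at -0.24. Egr4 (lower with methamphetamine) and Nr4a2 (higher) then had groups that did not overlap, 2 of the 7 genes, as did 22.5% of all genes at that setting. Both saline pools left there, 1 and 3, are in set A, and methamphetamine pools 1 and 3 are in set B. Treatment and library set can thus hardly be told apart at that setting. Without methamphetamine pool 3 this was 1 of 7, Nr4a3 (lower), against 11.3% of all genes. Nr4a2 stayed positive under all 13 alternatives run, from 0.56 (without methamphetamine pool 3) to 1.31, and 2 of them gave an unadjusted p below 0.05, with no adjusted p below 0.05.

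Compared per length, as CPM per kilobase of exon, the order over the 6 libraries was Egr1, Egr4, Nr4a1, Egr3, Nr4a2, Nr4a3 and Egr2. Egr1 ranged from 70.1 to 131 and Egr4 from 38.8 to 95.3. Nr4a1 ranged from 28.9 to 66.8 and Egr3 from 38.9 to 56.8. The low group of Nr4a2 (4.12 to 17.2), Nr4a3 (4.92 to 11.4) and Egr2 (3.70 to 9.06) stood apart: among neighbours in the order, the ranges of Egr3 and Nr4a2 alone did not overlap. Egr1 was above Egr4, and Egr4 above Nr4a1, in 6 of 6 libraries although their ranges overlapped. Nr4a1 was above Egr3, and Nr4a2 above Nr4a3, in 4 of 6, and Nr4a3 was above Egr2 in 2 of 6, so these neighbours have no settled order. By mean level per kilobase, the first 4 genes stood between the 95.3 and 98.1 percentiles of 17927 genes with a length, and the other 3 between 69.1 and 75.7.

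Over the 6 libraries, 6 of the members correlated positively with the mean of the other members, to differing degrees, and Nr4a2 did not. Pearson r with the mean of the other members, each centred, was 0.92 for Egr1, 0.80 for Egr3, 0.79 for Nr4a1, 0.76 for Egr2, 0.69 for Nr4a3 and 0.68 for Egr4. For Nr4a2 it was -0.08. These describe 6 libraries that share scaling and tissue makeup. The centred mean of the 7 genes was lowest in saline pool 2 (-0.42) and methamphetamine pool 1 (-0.29) and highest in methamphetamine pool 3 (0.50). Among 10041 genes with a mean above 3 log2 CPM, the 5 most like this profile were Zfp275 (r = 0.991), Chgb (0.981), Setbp1 (0.980), Hnrnpul1 (0.980) and Zmiz2 (0.976), over 6 libraries.

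Other immediate early genes, the wider set to which the members belong, did not pass the test either. Of 20 measured, 14 had a positive and 6 a negative difference, against 50.4% positive among all genes. Their median was 0.10 against 0.00 for all genes, and 0 had an adjusted p below 0.05. An unadjusted p below 0.05 in limma was found for 3, against 276 of all 18208 genes, in a list written with earlier results known. These were Btg2, an antiproliferative gene, at 1.28 ± 0.26 (SE; limma, unadjusted p = 0.000717, adjusted p = 0.9998), Fos, a subunit of AP-1, at 0.88 ± 0.23, and Dusp1, a MAP kinase phosphatase, at 0.65 ± 0.18. The same 3 had groups that did not overlap, as did 6.01% of all genes. The most negative was Ier5, at -0.72 ± 0.40.

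Genes whose products act with the members did not pass the test. Of 5 EGR cofactors, 2 were positive and 3 negative, among them the corepressors Nab1 at 0.25 ± 0.20 (SE) and Nab2, itself an EGR target, at -0.10 ± 0.24. Of 4 NR4A partners, 2 were positive and 2 negative: the RXR dimer partners stood at 0.03 ± 0.16 for Rxra, -0.12 ± 0.19 for Rxrb and -0.29 ± 0.17 for Rxrg, and the corepressor Rcor1 at 0.11 ± 0.22. None of these 9 had an unadjusted p below 0.05.

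Upstream, 13 genes of the SRF and MAP kinase arm gave 6 positive and 7 negative differences, with Srf at -0.13 ± 0.24, Elk4 at 0.23 ± 0.16 and the kinase gene Rps6ka3 at -0.56 ± 0.22 (unadjusted p = 0.0290, limma adjusted p = 0.9998). In the CREB arm 3 of 10 were positive, with Creb1 at 0.17 ± 0.31 and Rps6ka5 at -0.27 ± 0.16. Downstream, 1 of 4 EGR targets was positive, the synaptic gene Arc at 0.47 ± 0.22, and Cdk5r1 was lowest at -0.12 ± 0.15. Of 4 NR4A targets of dopamine neurons, 3 were positive and 1 negative, and their summed level was 11.8 to 30.2 CPM. None of these lists held a gene with an adjusted p below 0.05.

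In the CLIP libraries, hnRNP H reads lay mostly in exons for Egr1, Egr3 and Egr4 and mostly in introns for the 3 Nr4a genes. Of 37 exonic and 54 intronic windows, 39 of the intronic ones belonged to Nr4a1. Intronic windows took 95.9% of the reads of Nr4a1, 75.4% of those of Nr4a2 and 59.9% of those of Nr4a3. For Egr1 the share was 0.80%, for Egr3 19.8%, and Egr4, whose 3 windows are exonic, had none. All 9 reads of Egr2 fell in its intronic window. These shares describe reads of 6 libraries added together and were not tested. Neighbouring windows can share reads.

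**Figure D3:**
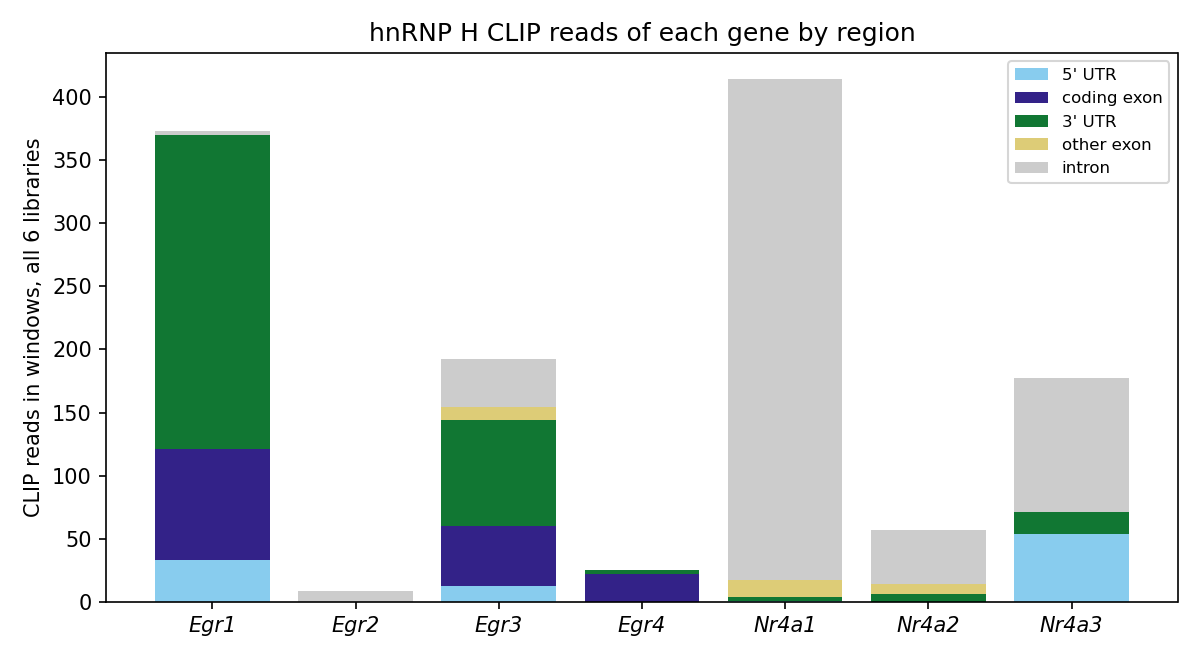
hnRNP H CLIP reads summed over the windows of each gene and over 6 libraries, stacked by the GENCODE region at the window's midpoint. Reads of Egr1 lie mostly in the 3′ UTR (66.8%), those of Nr4a1 mostly in introns (95.9%).

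Egr1 had 47, 19 and 91 CLIP reads in saline pools 1, 2 and 3 and 99, 87 and 30 in methamphetamine pools, 373 in 13 windows. Scaled to library size, these are 46.5, 50.5 and 54.5 CPM with saline and 116, 87.8 and 53.2 CPM with methamphetamine. Methamphetamine pools 1 and 2 were above all saline pools and pool 3 lay among them. The difference was 0.76 ± 0.41 log2 (SE; edgeR quasi-likelihood test, 95% interval -0.15 to 1.68, unadjusted p = 0.0921, adjusted p = 0.882). Within the sets, the difference in mean log2(CPM + 1) was 0.79 in set A and 0.63 in set B. Most of the reads, 66.8%, fell in the 3′ UTR and 23.6% in coding exons.

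Only 3 windows of the 7 genes, all in Egr1, had enough reads to be tested. Window 10, in the 3′ UTR at chr18:34864524-34864623, had 13, 2 and 25 reads with saline and 20, 27 and 4 with methamphetamine. Window 11, beside it, had 11, 1 and 21 reads with saline and 5, 21 and 7 with methamphetamine, and window 5, in the coding exon, had 4, 5 and 6 with saline and 14, 7 and 9 with methamphetamine. Saline pool 2, the shallowest library, had the fewest reads in windows 10 and 11, and the groups overlapped there. In window 5 the raw reads of all methamphetamine pools were above those of the saline pools, but not after scaling to library size. Their differences were 0.98 ± 0.62, 0.64 ± 0.63 and 1.39 ± 0.81 (SE), each with an edgeR adjusted p of 0.9998, and 0.0% of 10358 windows tested were called. At an unadjusted p below 0.05 edgeR listed 347 windows and DESeq2 345, with 0 called by either tool. None of the 3 was among the 347.

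Nr4a1 had 65, 12 and 103 reads with saline and 122, 57 and 55 with methamphetamine, 414 in 42 windows. In CPM these are 64.4, 31.9 and 61.7 with saline and 143, 57.6 and 97.6 with methamphetamine. Methamphetamine pools 1 and 3 were above all saline pools and pool 2 lay among them. The difference was 0.89 ± 0.47 (SE; edgeR, interval -0.17 to 1.95, unadjusted p = 0.0895, adjusted p = 0.882), -0.13 within set A and 1.86 within set B in mean log2(CPM + 1). Its most read window was the middle one of 3 adjoining intronic windows at chr15:101268270-101268569. That window had 2, 0 and 10 reads with saline and 25, 1 and 10 with methamphetamine. Methamphetamine pool 1 gave 52.1% of the reads of that window. A further 20 windows with 186 reads, 44.9% of the gene's total, lay before the RefSeq start at base 101266846, inside the longer GENCODE gene, which starts at 101254269.

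Egr3 had 19, 14 and 55 reads with saline and 69, 24 and 11 with methamphetamine, and the difference was 0.51 ± 0.62 (SE; edgeR adjusted p = 0.907). Methamphetamine pool 1 was far above the other 5 after scaling, at 80.8 CPM against 18.8 to 37.2. Its intronic window 2, at chr14:70077604-70077703, took 18 of its 21 reads from that pool. Without methamphetamine pool 1 the CLIP difference was -0.40 for Egr3, 0.49 for Egr1 and 0.53 for Nr4a1. Nr4a3 had 31, 8 and 60 reads with saline and 15, 41 and 22 with methamphetamine, and its difference was 0.13 ± 0.49 (SE; edgeR adjusted p = 0.970). The groups overlapped for both genes.

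Reads were few for the other members, which did not pass the filter on low counts: 4 of 7 were tested. Nr4a2 had 11, 10 and 5 reads with saline and 9, 8 and 14 with methamphetamine. Egr4 had 5, 1 and 5 and 3, 5 and 6, and Egr2 had 1, 0 and 7 and 1, 0 and 0. A count of 0 allows up to 3 reads, which is 7.09 CPM of the window reads in saline pool 2, 3.06 in methamphetamine pool 2 and 5.04 in methamphetamine pool 3, counting error only. With every gene of at least 1 read kept, edgeR gave 0.18 ± 0.82 for Nr4a2 (SE; 95% interval -1.58 to 1.94, adjusted p = 0.990) and 0.69 ± 0.95 for Egr4 (interval -1.35 to 2.74, adjusted p = 0.935). For Egr2, with 9 reads in all, the same edgeR fit gave -2.12 ± 1.61 (interval -5.60 to 1.37, adjusted p = 0.896). Over 8177 genes, 0.0% were called and 429 had an unadjusted p below 0.05 in edgeR (DESeq2: 0 called, 396). No member had groups that did not overlap in CLIP, against 9.59% of genes.

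The authors' deposited peak lists, 1 per treatment, held 5 positions of the members after methamphetamine and 3 after saline. Only Egr1 window 11 stood in both, 1 of 5 and 1 of 3, with the authors' signal value at 1.59 after methamphetamine and 1.72 after saline. Egr1 windows 5 and 10, the Egr3 intron window 2 and the Nr4a3 window 1 were in the methamphetamine list alone. Nr4a3 window 1, in the GENCODE 5′ UTR, had 8, 3 and 20 reads with saline and 2, 15 and 6 with methamphetamine. It lies before the RefSeq start at base 48045305 and held 54 of the gene's 177 reads (30.5%). The saline list alone held Egr3 window 9 and Nr4a2 intron window 7, which had 3, 9 and 3 reads with saline and 0, 1 and 0 with methamphetamine. Nr4a1, with the most CLIP reads of the 7, was in neither list, nor were Egr2 and Egr4. With 1 list per treatment, a peak in 1 list alone is not a tested difference. The share of all peaks that stood in both lists was not counted, so these counts cannot be read as particular to the members.

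Set against their own RNA, all members but Nr4a3 ranked lower in hnRNP H reads than in RNA level. How many of all genes did so was not counted. Among 13202 genes in both tables, Egr1 stood at the 97.9 percentile of RNA level and the 81.1 percentile of CLIP reads. Egr3 stood at 93.8 and 70.1, Egr4 at 90.3 and 28.2, and Egr2 at 50.9 and 6.61. For Nr4a1 the percentiles were 92.1 and 82.7, for Nr4a2 62.1 and 50.3, and for Nr4a3 66.6 and 67.3. CLIP reads of a gene sum over all its windows, introns included, so a gene with long introns can gather more.

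**Figure D4:**
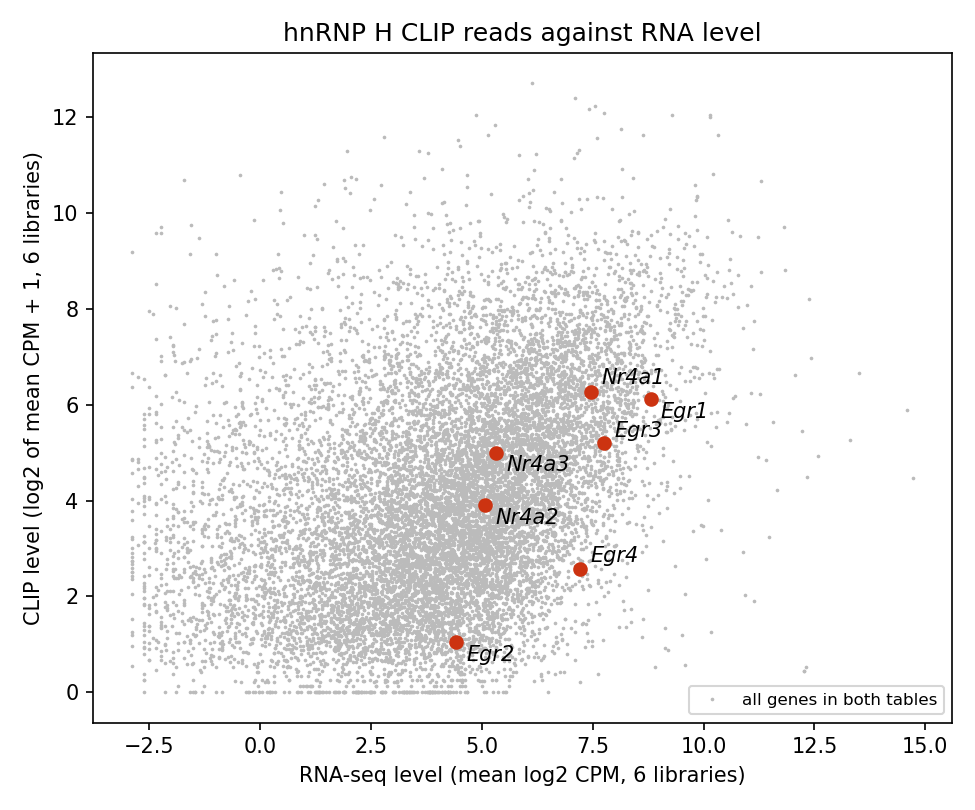
Mean CLIP level (log2 of CPM + 1) against mean RNA level (log2 CPM) over 6 libraries for 13202 genes in grey, with the 7 genes in red. Egr4 (28.2 percentile of CLIP level) and Egr2 (6.61 percentile) lie lowest of the 7.

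The ratio of CLIP to RNA in the same pool, on the log2 scale, was -3.34, -2.60 and -3.20 for Egr1 with saline and -1.72, -2.41 and -3.44 with methamphetamine. Methamphetamine pools 1 and 2 were above the saline pools and pool 3 below them. For Nr4a1 it was -1.85, -1.61 and -1.73 with saline and -0.11, -1.61 and -1.24 with methamphetamine. Within sets A and B the difference was 0.86 and 0.02 for Egr1 and 0.18 and 0.93 for Nr4a1. Over all pools the differences were 0.53 ± 0.60 for Egr1, 0.74 ± 0.53 for Nr4a1, 0.21 ± 0.76 for Egr3 and 0.09 ± 0.52 for Nr4a3 (SE; limma adjusted p = 0.9975 for each), and without methamphetamine pool 1 those of Egr1 and Nr4a1 were 0.12 and 0.30, with 0.0% of 7021 genes called over all pools and 220 at an unadjusted p below 0.05. By mean ratio Egr1 stood at the 5.91 percentile of these genes, Egr3 at 6.01, Nr4a1 at 22.7 and Nr4a3 at 39.6.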

How the data were processed

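The authors deposited RNA-seq as log2 CPM, called voom values per the labels. They inverted to whole reads with an offset of 0.5 reads in 100% of values (tolerance 0.05 reads). The deposited CLIP table holds whole-number counts per window of 100 bases in 6 paired-end alignments, per the file headers. Its 172271 lines give 147438 distinct positions, and each entered once. Per the file headers, the authors' peak lists give a signal value of no stated scale, used here as a score. They also give a p-value and a q-value per peak, with no test named in the deposited lists. Trimmomatic, UMI-tools, STAR, bedtools, Subread, featureCounts, limma and edgeR and the build mm10 are named, without versions or roles, in the submitters' processing notes. Whether counts were reduced by molecular identifier, and whether counting used strand, are not given in the sources used here, and no member overlaps another GENCODE gene.

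RNA level and CLIP per RNA were tested with limma 3.58.1 (eBayes with a mean-variance trend), two-sided. CLIP counts were tested with edgeR 4.0.16 by its quasi-likelihood test after filterByExpr and TMM scaling (R 4.3.3), and alternatively with DESeq2 1.42.0. CLIP per RNA used a prior of 0.5 reads. SEs of edgeR changes follow from the F statistic. All fits ran on whole tables with Benjamini-Hochberg adjustment at 0.05. The steps were also run on simulated data that lack the library sets, which cannot show what the fits could detect here. Regions were read at the window midpoint from GENCODE M21, preferring 3′ UTR, then 5′ UTR, coding exon, other exon and intron. The members, gene lists, library sets and tests were chosen with earlier results of these data known. All 7 members were named, with windows that passed the filter or stood in a peak list; from each list, the genes with the largest positive and negative change above 3 log2 CPM; and Srf, Creb1, Nab1, Nab2, Rxra, Rxrb and Rxrg in any case. Other windows, Fos and Dusp1 were chosen after their values were seen. Alternatives covered scaling, offset, filters, variance trend, test, library set, replicate block and each pool left out. Marker lists of oligodendrocytes (6 of 6 with a positive difference), astrocytes (5 of 5), microglia (5 of 5), endothelial cells (3 of 4) and choroid plexus (7 of 8) held no gene with an adjusted p below 0.05, and choroid plexus markers reached 4947 CPM in methamphetamine pool 2.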

Additional observations from a re-analysis of the deposited data

How the results depend on the processing

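None of the 7 genes was called in RNA-seq, CLIP or CLIP per RNA under any alternative run. Of 214 alternative values of single differences, 187 kept their sign and 27 did not. Leaving out each pool in turn gave RNA differences of -0.053 to 0.31 for Egr1, -0.21 to 0.43 for Egr2, -0.10 to 0.21 for Egr3, -0.41 to 0.28 for Egr4, -0.24 to 0.36 for Nr4a1 and -0.39 to 0.21 for Nr4a3. CLIP differences ranged from -0.40 to 0.83 for Egr3, -0.12 to 0.43 for Nr4a3, 0.49 to 1.01 for Egr1 and 0.53 to 1.14 for Nr4a1, and CLIP per RNA from -0.58 to 0.69, -0.29 to 0.35, 0.12 to 0.99 and 0.30 to 1.06. The lowest values of Egr1, Egr3 and Nr4a1 came without methamphetamine pool 1. Egr1 window 11 ranged from 0.24 (without methamphetamine pool 2) to 0.99. With edgeR on recovered reads Egr4 stood at -0.070 and Nr4a3 at 0.060, and with plain totals Nr4a3 at 0.075. With the library set as a covariate CLIP per RNA of Egr3 was -0.11. The cause was not tested. Members whose groups did not overlap numbered 0 to 2 of 7 with a pool left out, against 9.68% to 22.7% of all genes. With every window of at least 1 read tested, edgeR called 414 windows, none of a member; with peaks at or above the median signal of their list, 0 member positions stood in both lists. Pool 2 of either group mattered most: without methamphetamine pool 2 or saline pool 2, genes at an unadjusted p below 0.05 in RNA-seq went from 276 to 958 or 928, with 0 called. At both settings treatment and library set largely run together and can hardly be told apart.

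Same-numbered pools did not deviate together (r = -0.35, -0.82 and -0.49 in RNA-seq, -0.37, -0.55 and -0.08 in CLIP). Pools of the same number lie in different library sets, so these values cannot tell whether the numbers pair the pools. With the replicate block limma called 0 genes in RNA-seq and edgeR 0 windows and 0 gene sums in CLIP, with 144, 127 and 183 at an unadjusted p below 0.05. The block, the covariate, the variance trend, the filter and edgeR do not alter the values on which overlap of groups is counted, so they give it no value of their own. Egr2, Egr4 and Nr4a2, with 9, 25 and 57 CLIP reads over all libraries, were below the count filter of the main fit.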
